A study of Mus musculus with 4 samples.

Results

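Lymphatic endothelial markers were followed in endothelial cells of mouse tumours. The set was chosen by name and held 8 genes, Prox1, Foxc2, Tbx1, Lyve1, Stab1, Pdpn, Reln and Ccl21a, and all 8 were found among the 55367 gene names of the count table. RNA was sequenced from CD31+CD45- cells, a sort that keeps endothelial cells and removes leukocytes, out of subcutaneous tumours grown from injected KPC cells in C57BL/6 mice. KPC is a mouse pancreatic cancer line. The mice had received an anti-CD93 antibody (2 libraries) or control Rat IgG (2 libraries) by intraperitoneal injection 48 hours before the cells were taken. All tumours shared the same cell line, site and host strain. The labels give neither the sex and age of the mice nor how many mice made up a library, so each p-value here describes the spread between libraries, which may be technical.

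Lymphatic vessels drain fluid and immune cells from tissue, and their endothelium arises from veins when the transcription factor PROX1 is switched on. Lymphatic endothelial cells carry CD31 like blood endothelial cells, so a CD31 gate holds both. No marker of the set is read in lymphatic endothelium alone: LYVE1 and stabilin-1 are also found on macrophages and on sinusoidal endothelium, podoplanin on fibroblasts and epithelial cells, and PROX1 in several epithelia.

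The question was whether the markers differed between tumours given anti-CD93 and tumours given control IgG. The 7 markers with enough reads to be tested each had a log2 fold change below 0, meaning lower with anti-CD93. None passed the test. The differences ran from -0.83 for Tbx1 and -0.64 for Foxc2 to -0.0033 for Lyve1, with a median of -0.33, beside a median of -0.0092 over the 16945 genes tested, of which 50.9% were below 0. With edgeR's quasi-likelihood test adjusted over all genes, 0 of the 7 markers were called, beside 0% of all genes. At an unadjusted p under 0.05 it was 1 marker, Tbx1, beside 4.49% of all genes in either direction and 2.5% on the lower side. DESeq2, which called 0.015% of its genes, edgeR with no count filter, which called 0.144%, and limma-voom also called 0 markers. In bulk RNA a lower level could come from fewer lymphatic cells in the sort or from less RNA of the gene per cell. Fewer reads from the other cells that carry these markers could also lower it. These sources cannot be told apart.

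Among the libraries 1 stood apart. Depth was 9364294 to 17813993 assigned reads. Control IgG replicate 2 had the fewest reads, and its 1765 olfactory and vomeronasal receptor genes, which endothelium is not known to read, summed to 344 counts in 1000000 assigned reads, against 47.8 to 49.1 in the other 3 libraries. Its log2 profile correlated with the others at 0.945 to 0.947 across genes, while the others correlated with each other at 0.977 to 0.983. Genes are not independent replicates. For each tested marker the value without this library is given. The markers of the sort were high and low as the gate was set. Pecam1, which encodes CD31, averaged 1662 ± 1.71 CPM with anti-CD93 and 1779 ± 132 CPM with control IgG (SD, n = 2 each). Cdh5, which encodes VE-cadherin, averaged 2513 ± 67.7 CPM with anti-CD93 and 2906 ± 559 CPM with control IgG. Ptprc, which encodes CD45, averaged 3.70 ± 1.95 CPM with anti-CD93 and 3.54 ± 1.66 CPM with control IgG. CPM are counts in 1000000 reads after scaling with trimmed means (TMM). Cd93, the antibody's target, was at 1716 and 1514 CPM in anti-CD93 replicates 1 and 2, against 1530 and 1759 CPM in control IgG replicates 1 and 2.

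The 3 transcription factors are described first. Prox1 (chromosome 1, 190118035 to 190170714 on GRCm38) encodes the homeodomain protein that sets and keeps lymphatic identity. It had 409 and 578 reads in anti-CD93 replicates 1 and 2, against 530 and 286 reads in control IgG replicates 1 and 2. As CPM these were 23.1 and 42.0 with anti-CD93, against 43.2 and 30.6 with control IgG. The groups overlapped, since anti-CD93 replicate 2 lay close to the higher control library. The log2 fold change was -0.19 (SE 0.31, adjusted p = 0.896 by edgeR). Its sign rested on single libraries: it was -0.42 without control IgG replicate 2 but 0.079 without control IgG replicate 1 and 0.19 without anti-CD93 replicate 1.

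Tbx1 (chromosome 16, 18580979 to 18590671), a T-box factor needed for lymphatic vessel growth in mice, showed the largest difference of the set. It was at 5.08 and 7.27 CPM with anti-CD93, against 12.9 and 8.99 CPM with control IgG, from 90 and 100 reads with anti-CD93 and 158 and 84 reads with control IgG. Both anti-CD93 libraries lay below both control libraries. The log2 fold change was -0.83 (SE 0.34, unadjusted p = 0.038, adjusted p = 0.812 by edgeR), a fold of 0.561. Leaving out anti-CD93 replicate 2 gave -1.11, and leaving out control IgG replicate 1 gave -0.55, the ends of the range over the 4 libraries. Leaving out control IgG replicate 2 gave -1.07.

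Foxc2 (chromosome 8, 121116171 to 121118895) encodes a forkhead factor of lymphatic valves and collecting vessels. It was at 3.79 and 5.67 CPM with anti-CD93, against 8.81 and 5.78 CPM with control IgG. The groups did not overlap, but anti-CD93 replicate 2 had 78 reads and control IgG replicate 2 had 54, and the CPM of these libraries lay closer together than the replicates of either group. Its difference of -0.64 on the log2 scale (SE 0.38, adjusted p = 0.812 by edgeR) lay between -0.95 without anti-CD93 replicate 2 and -0.30 without control IgG replicate 1, and was -0.91 without control IgG replicate 2.

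**Figure D1:**
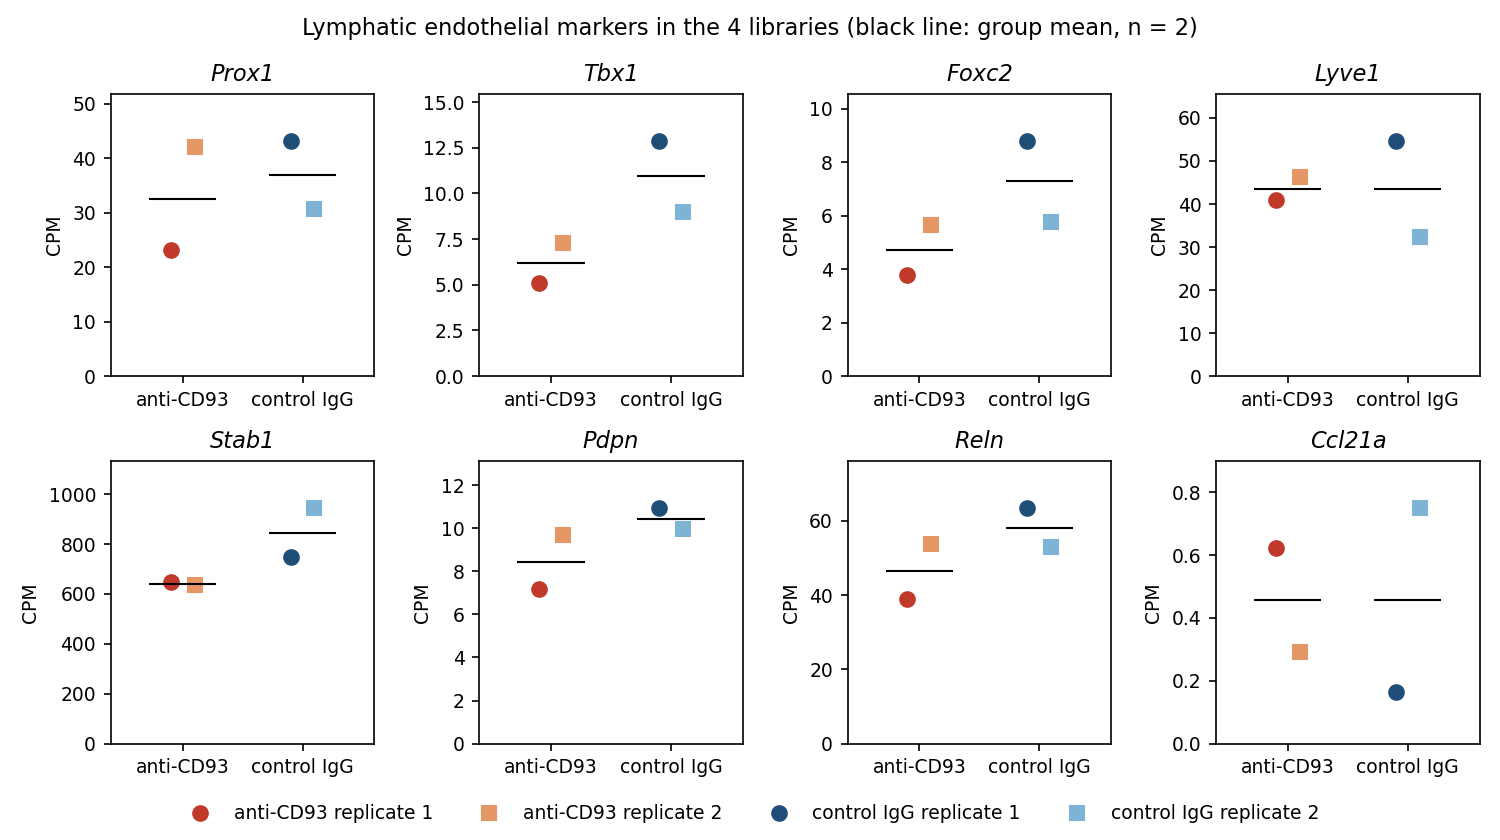
Level of each marker in CPM (y axis from 0) in the anti-CD93 libraries (left) and the control IgG libraries (right), with points for libraries and black lines for group means (n = 2). Tbx1, Foxc2, Stab1 and Pdpn have both anti-CD93 points below both control points, while Prox1, Lyve1, Reln and Ccl21a overlap.

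The receptors come next. Lyve1 (chromosome 7, 110850607 to 110863239) encodes a hyaluronan receptor of lymphatic capillaries through which dendritic cells enter the vessel. It was at 40.9 and 46.2 CPM with anti-CD93, against 54.7 and 32.3 CPM with control IgG. The control libraries stood on either side of the anti-CD93 libraries, and the group means were 43.6 ± 3.75 CPM with anti-CD93 and 43.5 ± 15.8 CPM with control IgG (SD, n = 2 each). This gave a log2 fold change of -0.0033 (SE 0.27, adjusted p = 0.996 by edgeR). With control IgG replicate 2 left out it was -0.33, and with control IgG replicate 1 left out 0.43. Each of these fits rests on a single control library, the latter on control IgG replicate 2.

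Stab1 (chromosome 14, 31139013 to 31168641) encodes stabilin-1, a scavenger receptor that takes up modified lipoproteins and the matrix protein SPARC. It was by far the most abundant marker, with 646 and 636 CPM under anti-CD93 and 747 and 944 CPM under control IgG. Both anti-CD93 libraries lay close together and below both controls. In the fit over all libraries Stab1 differed by -0.40 on the log2 scale (SE 0.18, unadjusted p = 0.060, adjusted p = 0.812 by edgeR). That value shrank to -0.22 with control IgG replicate 2 left out (edgeR, adjusted p = 0.621). With control IgG replicate 1 left out it was -0.56 and passed (edgeR, adjusted p = 0.00202), in a fit that called 26.8% of all genes and had control IgG replicate 2 as its only control library. The fits without control IgG replicate 2, anti-CD93 replicate 1 and anti-CD93 replicate 2 called 0 markers, beside 0.0767%, 0% and 0.0059% of all genes.

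Pdpn (chromosome 4, 143267431 to 143299564) encodes podoplanin, the surface mucin that binds CLEC-2 on platelets and keeps blood out of the lymphatics. It was at 7.17 and 9.66 CPM with anti-CD93, against 10.9 and 9.96 CPM with control IgG. The groups did not overlap, though anti-CD93 replicate 2 and control IgG replicate 2 were nearly level. Pdpn differed by -0.32 on the log2 scale (SE 0.29, adjusted p = 0.829 by edgeR). This was -0.11 without anti-CD93 replicate 1, -0.54 without anti-CD93 replicate 2 and -0.38 without control IgG replicate 2.

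The secreted products were reelin and the chemokine CCL21. Reln (chromosome 5, 21884454 to 22344702) encodes reelin, a large glycoprotein best known from brain layering, which lymphatic endothelium also secretes to recruit smooth muscle to collecting vessels. It was at 38.9 and 53.8 CPM with anti-CD93, against 63.4 and 52.9 CPM with control IgG. Anti-CD93 replicate 2 lay just above control IgG replicate 2, so the groups overlapped. At -0.33 on the log2 scale (SE 0.22, adjusted p = 0.812 by edgeR) its difference was -0.58 without anti-CD93 replicate 2, -0.10 without anti-CD93 replicate 1 and -0.46 without control IgG replicate 2.

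Ccl21a (chromosome 4, 42772860 to 42773993, and a further copy on the unplaced scaffold JH584294.1, 121048 to 121713, counted under the same name) encodes the CCR7 ligand that draws dendritic cells and T cells into lymphatics. It was almost unread, with 11 and 4 reads in anti-CD93 replicates 1 and 2 and 2 and 7 reads in control IgG replicates 1 and 2, and it did not reach the count filter, so it was left out of the main comparison. Fitted with no count filter, its log2 fold change was 0.11 (SE 1.45, adjusted p = 0.986 by edgeR). Scaled, that was 0.621 and 0.291 CPM with anti-CD93, against 0.163 and 0.749 CPM with control IgG. The low count is a limit of the measurement as well as a value, because the gene has near-identical copies. Of all stretches of 150 bases, the read length, in the annotated Ccl21a transcripts, 33.7% also occurred in transcripts of Ccl21b and the predicted genes Gm10591, Gm13304 and Gm21541, against 0% for each of the other 7 markers. Stretches shared only between the copies counted under the name Ccl21a are not part of this share. The counting command has no option that would count reads with several best places. Over the 402 coding bases Ccl21a and Ccl21b differed at 2 positions, T84A and C194T, counted from the A of the start codon with the Ccl21a base first. The first 150 coding bases of both genes are shown for that reason, 5′ to 3′, with the differing base in capitals, from GENCODE vM21 transcripts.
Ccl21a: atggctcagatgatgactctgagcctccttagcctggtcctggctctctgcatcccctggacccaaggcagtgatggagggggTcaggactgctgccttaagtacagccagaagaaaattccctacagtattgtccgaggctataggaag
Ccl21b: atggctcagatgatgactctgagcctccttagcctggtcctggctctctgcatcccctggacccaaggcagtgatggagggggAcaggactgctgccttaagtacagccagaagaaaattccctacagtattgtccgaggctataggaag
Ccl21b had 4 and 6 reads with anti-CD93 and 6 and 9 reads with control IgG. A read that does not cross a differing base has no unique place among these copies, and neither count can be taken as the level of its gene.

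**Figure D2:**
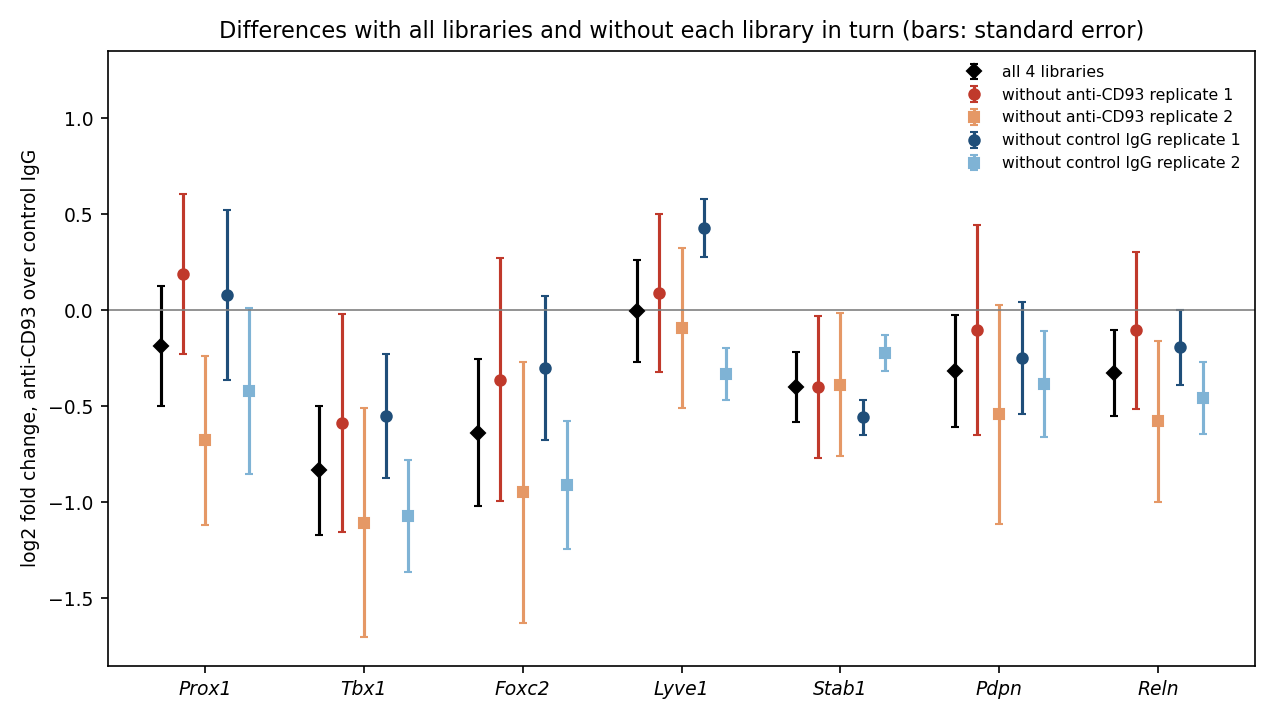
Log2 fold change of anti-CD93 over control IgG (y axis) for the 7 tested markers, with all 4 libraries (black) and without each library in turn (colours), and standard errors as bars. Tbx1, Foxc2, Stab1, Pdpn and Reln stay below 0 in every fit shown, while Prox1 and Lyve1 lie on both sides of 0.

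The libraries themselves were ordered alike across markers. Anti-CD93 replicate 1 was the lowest library for 5 of the 7 tested markers, Prox1, Tbx1, Foxc2, Pdpn and Reln, whereas 21% of all tested genes were lowest there. Control IgG replicate 1 was the highest library for 6 of 7, all but Stab1, whereas 20% of all tested genes were highest there. The median deviation of the 7 markers from each gene's own mean was -0.40 and 0.051 in anti-CD93 replicates 1 and 2 and 0.35 and 0.039 in control IgG replicates 1 and 2, on the log2 scale. Anti-CD93 replicate 2 and control IgG replicate 2 were thus nearly level. With all libraries, 4 of 7 markers had both anti-CD93 libraries below both controls, and 19.7% of all tested genes did. So did 6 of the 10 pan-endothelial genes described below, so this order was not particular to the markers. No marker had both above, as 20.1% of all tested genes did. Leaving out control IgG replicate 2 made it 7 of 7 markers, where the share of all genes was 35.3%. Leaving out control IgG replicate 1 gave 4 of 7, where the share was 43.2%, and Lyve1 lay above, as 42.8% of all genes did. It was 4 of 7 without anti-CD93 replicate 1, where the share was 30.5%, and 6 of 7 without anti-CD93 replicate 2, where it was 30.4%. The median over the 7 markers was -0.11 without anti-CD93 replicate 1 and -0.58 without anti-CD93 replicate 2.

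Prox1, Reln and Pdpn are among the 5 markers that shared their lowest and highest library, and the 250 bases before their most upstream RefSeq start (GRCm38.p6) are shown. Promoters of 6 of the 8 markers were matched. Each was searched on both strands for a GC box (GGGCGG), a SOX core (ACAAAG), a FOX core (GTAAACA) and a GATA core (AGATAA). Capitals mark each match, and no matches overlapped. The windows are chr1:190170828-190171077 for Prox1, chr5:22344706-22344955 for Reln and chr4:143299565-143299814 for Pdpn, each on the minus strand and written 5′ to 3′.
Prox1: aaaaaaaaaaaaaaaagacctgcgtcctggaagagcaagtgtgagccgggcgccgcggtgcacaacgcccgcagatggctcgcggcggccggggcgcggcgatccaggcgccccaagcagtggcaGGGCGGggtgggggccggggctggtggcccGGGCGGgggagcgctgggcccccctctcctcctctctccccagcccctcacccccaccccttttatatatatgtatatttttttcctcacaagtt
Reln: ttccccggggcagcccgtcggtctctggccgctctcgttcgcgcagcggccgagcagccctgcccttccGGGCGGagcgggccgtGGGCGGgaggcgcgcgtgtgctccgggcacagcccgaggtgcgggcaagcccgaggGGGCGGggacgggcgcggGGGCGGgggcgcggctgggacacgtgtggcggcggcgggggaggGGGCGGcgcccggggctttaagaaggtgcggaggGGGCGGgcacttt
Pdpn: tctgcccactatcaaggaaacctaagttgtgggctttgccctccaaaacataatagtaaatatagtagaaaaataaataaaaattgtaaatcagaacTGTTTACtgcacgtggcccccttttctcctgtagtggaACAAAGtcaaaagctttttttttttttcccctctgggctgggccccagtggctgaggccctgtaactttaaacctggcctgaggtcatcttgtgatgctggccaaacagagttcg
The Prox1 window held 2 GC boxes and the Reln window 6, and both were rich in G and C, at 64.8% and 80% of bases. The Pdpn window, at 43.2% G and C, held no GC box but 1 FOX core and 1 SOX core. The window at the most upstream start of Tbx1, also among the 5 markers, is not shown. It held no match, at 54.4% G and C. Among the 32851 windows of the whole table, 32.7% held a GC box, 16.5% a SOX core, 3.17% a FOX core and 9.99% a GATA core. Prox1 and Tbx1 each had a further window in the table: with these included, a GC box was found for Prox1, Reln and Tbx1, a SOX core for Prox1 and Pdpn, a FOX core for Pdpn, and a GATA core for none of the 6 markers. A match describes the letters only.

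Levels of different genes can be set side by side only per length, as CPM per kilobase of exon. On this scale the order with anti-CD93 was Stab1 at 62.3 ± 0.710, Lyve1 at 14.9 ± 1.29, Pdpn at 4.63 ± 0.968, Prox1 at 3.88 ± 1.59, Reln at 1.95 ± 0.444, Tbx1 at 1.76 ± 0.438, Foxc2 at 1.73 ± 0.488 and Ccl21a at 0.359 ± 0.184 (SD, n = 2). With control IgG it was Stab1 at 82.2 ± 13.5, Lyve1 at 14.9 ± 5.43, Pdpn at 5.75 ± 0.379, Prox1 at 4.4 ± 1.06, Tbx1 at 3.11 ± 0.783, Foxc2 at 2.68 ± 0.786, Reln at 2.45 ± 0.313 and Ccl21a at 0.359 ± 0.326. Stab1 stood above Lyve1 and Lyve1 above all others in every library, and the Ccl21a counts stood below all others. The Ccl21a value is a count per length and cannot be taken as the level of the gene, for the reason given above. Its exonic length of 1272 bases also takes in both copies. Pdpn and Prox1 overlapped with anti-CD93 but not with control IgG. Reln, Tbx1 and Foxc2 overlapped in both groups, and Prox1 met Tbx1 with control IgG.

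Against the endothelial genes of the same libraries, the lymphatic regulators were low. The mean level per length of Prox1 was 1.5% of that of Pecam1, and the others came to 5.40% for Lyve1, 1.88% for Pdpn, 0.881% for Tbx1, 0.799% for Foxc2 and 0.797% for Reln. Stab1, at 26.2%, stood near Flt4, which encodes the VEGF-C receptor VEGFR-3 and is also read in tumour blood vessels, at 19.5%. The olfactory and vomeronasal receptor genes gave each library a level for silent genes, 0.00848 and 0.00833 with anti-CD93 and 0.00853 and 0.0599 with control IgG on the same scale. Prox1 was 325 and 601 times that level with anti-CD93, and 604 and 60.9 times with control IgG. For the Ccl21a counts, with the same limit, the ratio was 57.6 and 27.4 with anti-CD93, and 15.0 and 9.83 with control IgG. The ratio was smallest in control IgG replicate 2 for each of the 8 markers.

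**Figure D3:**
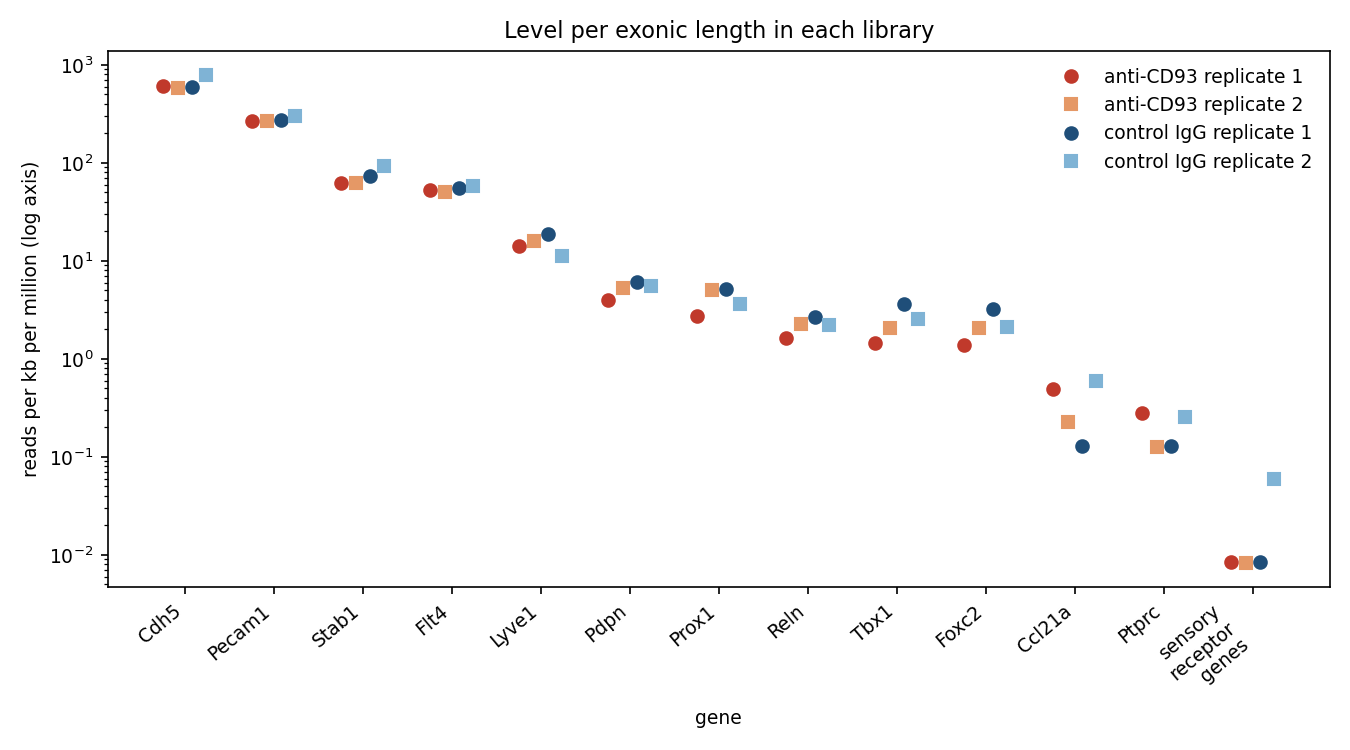
CPM per kilobase of exon (log axis) for the 8 markers, for Cdh5, Pecam1, Flt4 and Ptprc, and for pooled sensory receptor genes, with a point for each library. The markers span from Stab1 at 61.8 to 91.8 down to Ccl21a at 0.128 to 0.589, and the receptor genes are raised in control IgG replicate 2 alone. The Ccl21a points are counts that cannot be taken as the level of the gene.

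Other genes of lymphatic development were then read from a list. Of 10 tested genes of lymphatic specification and VEGF-C signalling, 0 were called by edgeR, 5 were above and 5 below 0, and the median log2 fold change was -0.061. Leaving out control IgG replicate 1 gave 9 below and 1 above with a median of -0.13, and leaving out control IgG replicate 2 gave a median of -0.0019. Flt4 was at 430 and 414 CPM with anti-CD93, against 451 and 479 CPM with control IgG. Its groups did not overlap, but the log2 fold change was only -0.14 (SE 0.16, adjusted p = 0.856 by edgeR). Vegfc, the main lymphatic growth factor, was at 18 and 27.9 CPM with anti-CD93, against 31.1 and 24.6 CPM with control IgG, and so followed the same order of libraries as Prox1. Sox18, which switches on Prox1 in the embryo, was at 131 and 156 CPM with anti-CD93, against 142 and 181 CPM with control IgG. The log2 fold change of Sox18 was -0.17, and 0.013 without control IgG replicate 2. That of Vegfc was -0.28, and 0.0078 without anti-CD93 replicate 1. The 5 genes above 0 were Nr2f2, Hhex, Nrp2, Ccbe1 and Kdr, at 0.035, 0.048, 0.017, 0.12 and 0.025, all with overlapping groups.

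Genes of lymphatic valves and collecting vessels were read next. Of 17 tested, 0 were called, 13 were below and 4 above 0, and the median was -0.29, but without control IgG replicate 2 it was 10 below and 7 above, with a median of -0.033. In 6 of 17 both anti-CD93 libraries were below both controls, beside 19.7% of all tested genes. Foxc1, the partner of Foxc2, was at 14.8 and 15.0 CPM with anti-CD93, against 20.7 and 19.8 CPM with control IgG. Its replicates lay close together in both groups, and the log2 fold change of -0.44 (SE 0.22, adjusted p = 0.812 by edgeR) was -0.48 without control IgG replicate 2. The mechanosensor gene Piezo1 was at 380 and 401 CPM with anti-CD93, against 408 and 612 CPM with control IgG, and Ephb4, which encodes an ephrin receptor of veins and valves, was at 284 and 311 CPM with anti-CD93, against 318 and 472 CPM with control IgG. With control IgG replicate 2 left out, the log2 fold change of Piezo1 was -0.064 in place of -0.38, and that of Ephb4 -0.097 in place of -0.41. Of the 4 genes above 0, Gja1 was at 953 and 968 CPM with anti-CD93, against 901 and 615 CPM with control IgG. Its log2 fold change was 0.34. Sema3a, Efnb2 and Vangl2 were at 0.22, 0.18 and 0.17 with overlapping groups.

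Among 13 other tested lymphatic markers 0 were called, 8 were below and 5 above 0, and the median was -0.053, which turned to 0.24 without control IgG replicate 1. Mmrn1, a multimerin gene of lymphatic capillaries, was picked after its values were seen and had the same lowest and highest library as Lyve1, with 65.4 and 81.2 CPM with anti-CD93, against 112 and 62.8 CPM with control IgG, with the controls on either side. Lbp, which encodes the lipopolysaccharide-binding protein, was at 26.3 and 36.3 CPM with anti-CD93, against 45.7 and 47.6 CPM with control IgG (log2 fold change -0.58, SE 0.22, adjusted p = 0.812 by edgeR). Fxyd6, an ion pump regulator, was at 3.62 and 6.97 CPM with anti-CD93, against 7.83 and 10.1 CPM with control IgG. The sodium channel gene Scnn1b had a larger difference, but from 6 and 4 reads with anti-CD93, against 14 and 15 reads with control IgG (log2 fold change -2.08, SE 0.77, adjusted p = 0.812 by edgeR).

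Partners of the markers were their receptors, ligands and the hyaluronan enzymes. Of 13 tested 0 were called, 4 were above and 9 below 0, and the median was -0.060. Vldlr, which encodes a reelin receptor, was at 36.6 and 31.2 CPM with anti-CD93, against 18.9 and 21.3 CPM with control IgG, while the groups of Reln itself overlapped. Both anti-CD93 libraries of Vldlr were above both controls, as in 20.1% of all tested genes. The log2 fold change of Vldlr was 0.75 (SE 0.21, unadjusted p = 0.00763, adjusted p = 0.812 by edgeR) and 0.84 without control IgG replicate 2. Lrp8, the other reelin receptor gene, was at 19.8 and 24.3 CPM with anti-CD93, against 24.6 and 23.6 CPM with control IgG. Cd44, the hyaluronan receptor that LYVE1 resembles, was at 186 and 200 CPM with anti-CD93, against 127 and 151 CPM with control IgG (log2 fold change 0.47, SE 0.18, adjusted p = 0.812 by edgeR). Hyal2, a hyaluronidase gene, was at 24.1 and 24.7 CPM with anti-CD93, against 28.5 and 37.9 CPM with control IgG. Ccr7, the receptor for CCL21, had at most 8 reads in any library, and Ccl19, its other ligand, had 0 reads in all 4, which allows up to 0.169 to 0.321 CPM per library at 3 reads. That limit treats reads as independent and is too low, since mates were counted singly.

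**Figure D4:**
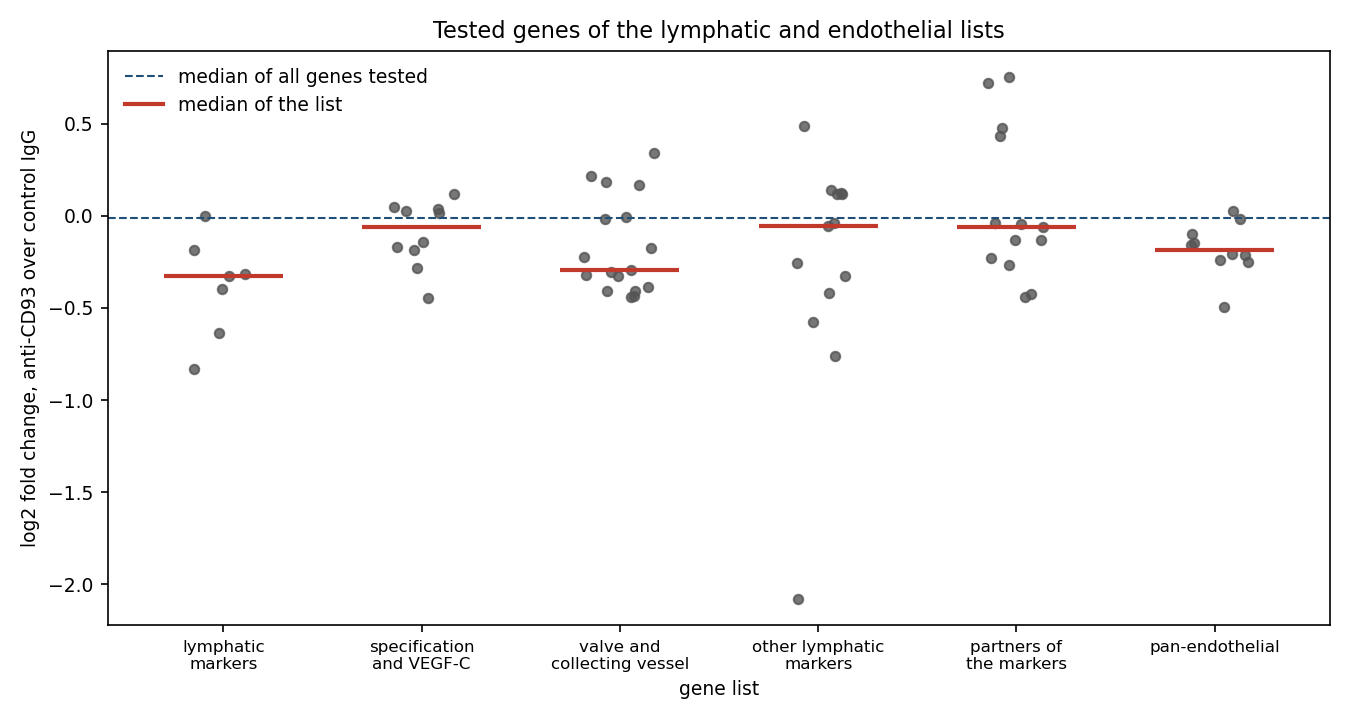
Log2 fold change of anti-CD93 over control IgG (y axis) for each tested gene of the lymphatic lists and of the pan-endothelial list, with list medians as red lines and the median of all tested genes, -0.0092, as a dashed line. The lymphatic markers (median -0.33) and the valve genes (median -0.29) have the lowest medians, the pan-endothelial genes have -0.18, and no gene shown passed the test.

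Other cells that read these markers were followed with the marker lists. Pan-endothelial genes also lay lower, 9 of 10 below 0 with a median of -0.18, and their summed level was 7959 and 7944 CPM with anti-CD93, against 8130 and 9753 CPM with control IgG. The median of the pan-endothelial genes was -0.048 without control IgG replicate 2, beside -0.42 for the lymphatic markers, and -0.17 without anti-CD93 replicate 2, beside -0.58. It was -0.20 without control IgG replicate 1, beside -0.25, and -0.16 without anti-CD93 replicate 1, beside -0.11, so the order of the lists turned there. Egfl7, which encodes a secreted endothelial protein, was at 509 and 524 CPM with anti-CD93, against 603 and 855 CPM with control IgG. Tie1, an endothelial receptor gene that lymphatic vessels need too, was at 557 and 543 CPM with anti-CD93, against 579 and 720 CPM with control IgG, and Robo4 at 364 and 407 CPM with anti-CD93, against 389 and 528 CPM with control IgG. With control IgG replicate 2 left out, the log2 fold change was -0.22 in place of -0.50 for Egfl7, -0.075 in place of -0.24 for Tie1 and -0.014 in place of -0.25 for Robo4. Macrophage genes, which matter for Lyve1 and Stab1, summed to 65.2 and 52.5 CPM with anti-CD93, against 33.0 and 56.1 CPM with control IgG, with 6 of 9 tested above and 3 below 0. Their median log2 fold change was 0.11, which was -0.33 without control IgG replicate 1 and 1.11 without control IgG replicate 2. The macrophage genes Timd4, Folr2 and Fcgr1 had 0 reads in at least 2 libraries each. Mrc1, a mannose receptor gene that lymphatic endothelium reads too, was at 24.2 and 17.7 CPM with anti-CD93, against 13.1 and 10.9 CPM with control IgG, and C1qa, a complement gene, at 4.69 and 4.00 CPM with anti-CD93, against 1.96 and 2.25 CPM with control IgG. The other chains of the same complex did not share that order: C1qb was at 2.88 and 2.47 CPM with anti-CD93, against 1.22 and 5.14 CPM with control IgG, and C1qc at 2.54 and 3.34 CPM with anti-CD93, against 0.734 and 4.82 CPM with control IgG. Csf1r and Cd68 had log2 fold changes of -0.0012 and -0.34. Lyz2, a lysozyme gene of myeloid cells, was at 18.1 and 14.9 CPM with anti-CD93, against 7.67 and 16.3 CPM with control IgG, a log2 fold change of 0.48 that was 1.11 without control IgG replicate 2. The part of macrophages in the values of Lyve1 and Stab1 was not tested.

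Fibroblast and epithelial genes, which matter for Pdpn, were abundant in the sort. Fibroblast genes summed to 1895 and 2359 CPM with anti-CD93, against 2264 and 2938 CPM with control IgG, with 5 of 9 below and 4 above 0. The sum was lowest in anti-CD93 replicate 1, as Pdpn was. It was highest in control IgG replicate 2, whereas Pdpn was highest in control IgG replicate 1. Their median of -0.11 was 0.0037 without control IgG replicate 2 and 0.16 without anti-CD93 replicate 1, but -0.34 without control IgG replicate 1 and -0.41 without anti-CD93 replicate 2. Col3a1, a fibrillar collagen gene, was at 486 and 594 CPM with anti-CD93, against 617 and 896 CPM with control IgG. Col1a1 was at 819 and 982 CPM with anti-CD93, against 953 and 1245 CPM with control IgG, and Dpt, which encodes dermatopontin, at 1.47 and 1.53 CPM with anti-CD93, against 1.88 and 4.71 CPM with control IgG. Without control IgG replicate 2 the log2 fold change was -0.19 in place of -0.49 for Col3a1. On the other side of 0, Fap, a protease gene of activated fibroblasts, was at 5.82 and 5.09 CPM with anti-CD93, against 4.65 and 2.78 CPM with control IgG, and Lum, Postn and Pdgfra had log2 fold changes of 0.20, 0.18 and 0.14 with overlapping groups. Tumour epithelial genes summed to 2520 and 2122 CPM with anti-CD93, against 1780 and 2578 CPM with control IgG, with 7 of 10 above and 3 below 0. Their median of 0.12 was 0.096 without control IgG replicate 1, with 5 above and 5 below, and 0.39 without control IgG replicate 2. Muc1 was at 78.5 and 72.0 CPM with anti-CD93, against 35.2 and 48.1 CPM with control IgG, and the adhesion gene Epcam at 34.1 and 41.1 CPM with anti-CD93, against 21.7 and 23.4 CPM with control IgG. Cdh1, which encodes E-cadherin, was at 351 and 290.0 CPM with anti-CD93, against 216 and 210.4 CPM with control IgG. Only these 3 of the 10 had both anti-CD93 libraries above both controls, as 20.1% of all tested genes did. In all the others the groups overlapped. Krt8, Krt18, Krt19 and Lcn2 had log2 fold changes of 0.013, -0.12, -0.031 and -0.41. Krt7, Msln and Sox9 were at 0.18, 0.054 and 0.24. Pericyte genes summed to 1049 and 869 CPM with anti-CD93, against 1005 and 872 CPM with control IgG, with 5 of 9 below and 4 above 0. The median of the pericyte genes was -0.13, but 0.063 without anti-CD93 replicate 2 and -0.34 without control IgG replicate 1. Among them Kcnj8 was at 79.5 and 68.2 CPM with anti-CD93, against 107 and 105 CPM with control IgG, Des at 13.5 and 12.2 CPM with anti-CD93, against 15.3 and 18.8 CPM with control IgG, and Rgs5 at 226 and 143 CPM with anti-CD93, against 169 and 108 CPM with control IgG. No fibroblast, epithelial or pericyte marker was at 0 in any library. The part of these cells in the values of Pdpn, and that of epithelial cells in the values of Prox1, was not tested.

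**Figure D5:**
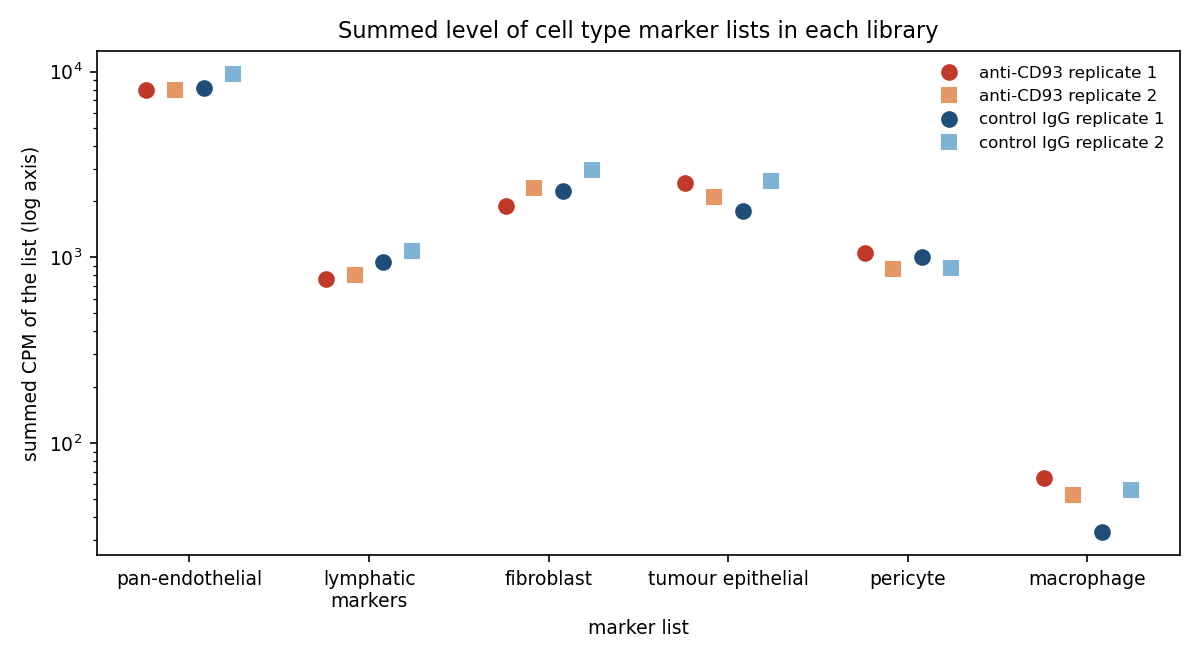
Summed CPM (log axis) of the marker lists for the cell types that the sort could hold, with a point for each library. Macrophage genes sum to 33.0 to 65.2 CPM and pan-endothelial genes to 7944 to 9753 CPM, and the lymphatic markers, most of them Stab1 reads, to 766 to 1085 CPM.

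Among 10228 named genes with a mean of at least 5 CPM, those with the profile nearest to Prox1 over the 4 libraries were Rab10os, Moxd1 and Phgdh, at root mean square distances of 0.048, 0.058 and 0.069 on the log2 scale. Those nearest to Lyve1 were Rab33b, Ttc27 and Ift80, at 0.027, 0.028 and 0.038. With 4 libraries such nearness describes these libraries only.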

How the data were processed

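Total RNA of 4 libraries was prepared with a stranded kit and read from both ends, 150 bases each. The deposited table of raw counts was made by the authors, per the file headers, with featureCounts 2.0.1 on GENCODE vM25 (GRCm38), by gene name, with no paired-end, strand or multi-mapping option. Mates were therefore counted singly and strands were not told apart. Exons of Prox1os, Gm10475 and Nt5dc2 on the other strand share 1.58%, 1.04% and 1.09% of the exonic bases of Prox1, Reln and Stab1. STAR 2.7.5b and DESeq2 1.28.1 stand in the submitters' processing notes. The other deposited table was called normalized, but 0 of its 221468 cells differed from the raw counts, so it was left aside.

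Genes passing filterByExpr at a minimum count of 10 (16945) were scaled by TMM and compared with edgeR 4.0.16 (R 4.3.3), quasi-likelihood with robust dispersion and no covariates. P-values were Benjamini-Hochberg adjusted over all of them, with a threshold of 0.05. Groups came from the titles. Members and lists were chosen with earlier results of these data known. Named were all members, Cd93, Pecam1, Cdh5, Ptprc, the 3 genes of smallest p per list, and the 3 profiles nearest to Prox1 and to Lyve1. Mmrn1, Lrp8, Ccr7, Ccl19, Ccl21b, Timd4, Folr2, Fcgr1, C1qb, C1qc, Csf1r, Cd68, Fap, Lum, Postn and Pdgfra were named after their values were seen. So were Nr2f2, Hhex, Nrp2, Ccbe1, Kdr, Gja1, Sema3a, Efnb2, Vangl2, Krt7, Krt8, Krt18, Krt19, Lcn2, Msln and Sox9. Per-length levels use the deposited exon lengths. Depth and 2 libraries a group limit the precision, and intervals at 0 reads cover counting error only.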

Additional observations from a re-analysis of the deposited data

How the results depend on the processing

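Other scalings, a minimum count of 50, no robust dispersion, limma-voom and halved counts left 0 genes and 0 markers called. The number of genes called was 48 with no count filter, 5 with DESeq2 1.42.0 and 14 with the replicate number as a block, none of them a marker, and it ran from 0 to 4549 with 1 library left out, the highest without control IgG replicate 1. The number of markers called then ran from 0 to 1, and the number with anti-CD93 below control IgG, a count chosen after the data were seen, from 4 to 7. The log2 fold change of Prox1 ran from -0.68 to 0.19 and that of Lyve1 from -0.33 to 0.43 with 1 library left out. Lyve1 was also above 0 with no count filter (0.036), DESeq2 (0.0085), limma-voom (0.026) and the replicate block (0.040). The cause of these changes was not tested. The other 5 tested markers stayed below 0 in all 15 alternatives. Of these, an adjusted p threshold of 0.1 and no robust dispersion leave the fold changes as they are. The rest refit the same libraries, save the 4 fits with 1 library left out. The median of all 7 was -0.33, and -0.34 with the replicate block. With no count filter (-0.28) and DESeq2 (-0.31) it covered 8 markers, Ccl21a included. Dropping a library moved it most. Lacking replicate 1 or 2 of anti-CD93 it was -0.11 or -0.58, and lacking replicate 1 or 2 of control IgG -0.25 or -0.42. These moves were smaller than 0.28, the SD of the marker median between replicates. That SD comes from the same libraries, so it cannot show that the median is stable. The median of all genes moved by over 0.1 with DESeq2 alone, to -0.13, over its 33419 genes. The titles number the replicates but do not say whether same-numbered libraries belong together. Deviations of same-numbered libraries correlated at -0.016 across genes, which cannot decide this with 1 difference between replicates in each group. Ccl21a could not be judged at its depth.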

Other observations

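A further 3 genes were picked, after their values were seen, because they had the control libraries on either side of the anti-CD93 libraries, as Lyve1 did. Fgl2, a secreted fibrinogen-like immune regulator, was at 16 and 30.7 CPM with anti-CD93, against 48.1 and 13.8 CPM with control IgG. Nts, which encodes neurotensin, a peptide made by lymphatic endothelium, was at 27.2 and 22.2 CPM with anti-CD93, against 31.5 and 19.1 CPM with control IgG. Has1, a hyaluronan synthase gene, was at 15.8 and 20.1 CPM with anti-CD93, against 23.4 and 13.8 CPM with control IgG.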
